A study of Mus musculus with 14 samples.

Results

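RUNX1 occupancy and elongating RNA polymerase II were related gene by gene in wild-type (WT) G1ER cells. Every mouse protein-coding gene of at least 2 kb was described by how many RUNX1 summits it held, where they lay, and how much of it was under peaks of polymerase phosphorylated at serine 2 (S2P). Of 19304 such genes, 10594 had at least 1 RUNX1 summit in them or in the 5 kb on each side, and 8710 had none. The RUNX1 data were 1 WT library, and the S2P data were 1 peak list that the labels assign to both of the 2 WT replicates.

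G1ER is a mouse erythroblast line that lacks its own GATA1 and carries a GATA1 fusion which estradiol switches on. The cells were grown with erythropoietin and stem cell factor, and the labels mention estradiol, for 48 hours, only in connection with a differentiation assay. Whether the cells taken for ChIP had received estradiol is not given in the sources used here. The series also profiled GATA2 and a Chd7 knockout, 14 samples in all with 6 inputs, and of these only the WT GATA2 list was used here, for comparison.

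RUNX1 is a transcription factor that binds DNA together with CBFB. It is needed for the first blood stem cells to form, and in the adult for megakaryocytes and lymphocytes, and the TGTGGT core is its usual recognition sequence. RNA polymerase II carries a long repeated tail on its largest subunit. As polymerase leaves the promoter-proximal pause, the kinase P-TEFb and related kinases add phosphate to serine 2 of the repeat, so the S2P form is found over gene bodies and is known to be densest towards and beyond their 3′ ends.

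The strongest RUNX1 summits near gene starts illustrate the 2 measurements. Strength is the peak caller's q, and a summit's depth is its number of overlapping ChIP fragments, recovered from the deposited values, with an exact 95% Poisson interval. Among the 6 genes with the strongest start summit, the summit lay inside the promoter window of the reference table in 4 of them, and up to 60 bases either side of it are shown, 5′ to 3′ on the strand of the gene. Iqch and Hyal2 are set below them because their strongest summit was likewise within 1 kb of a start, at -87 and -201 bp from it, while 0% of either gene was under S2P peaks. Capitals mark TGTGGT or TGCGGT, or their reverse complements ACCACA and ACCGCA.
Por, chr5:135689043-135689163, plus strand: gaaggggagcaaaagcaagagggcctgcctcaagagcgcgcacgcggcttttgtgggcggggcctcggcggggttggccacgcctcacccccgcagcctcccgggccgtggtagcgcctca
Oga, chr19:45783604-45783724, minus strand: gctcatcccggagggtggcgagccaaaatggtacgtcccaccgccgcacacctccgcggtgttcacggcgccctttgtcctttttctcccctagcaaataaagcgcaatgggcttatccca
Rnf44, chr13:54693911-54694019, minus strand: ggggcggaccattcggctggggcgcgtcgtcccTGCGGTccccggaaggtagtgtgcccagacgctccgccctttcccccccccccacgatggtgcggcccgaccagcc
Akirin1, chr4:123750289-123750409, minus strand: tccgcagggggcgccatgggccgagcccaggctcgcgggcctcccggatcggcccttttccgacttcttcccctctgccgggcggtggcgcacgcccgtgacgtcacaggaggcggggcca
Iqch, chr9:63602520-63602640, minus strand: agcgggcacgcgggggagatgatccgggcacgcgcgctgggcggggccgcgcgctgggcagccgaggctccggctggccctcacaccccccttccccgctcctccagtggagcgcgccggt
Hyal2, chr9:107568913-107569022, plus strand: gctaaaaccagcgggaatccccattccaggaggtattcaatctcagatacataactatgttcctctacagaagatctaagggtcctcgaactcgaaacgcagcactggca

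Those sequences are from RefSeq, on GRCm38.p6. Rnf44, a RING-finger protein gene, had the deepest of these summits, with 282 fragments (250 to 317) at 1 bp from a start, and 38.8% of the gene lay under S2P peaks. Oga, which encodes the enzyme that removes O-GlcNAc from proteins, had 279 fragments (247 to 314) at -111 bp from a start, and 96.5% of it was under S2P peaks. Por, the cytochrome P450 reductase gene, had 272 fragments (241 to 306) and 27.3% coverage, and Akirin1, a nuclear cofactor gene, had 248 (218 to 281) and 32.9%. Of the other 2 genes with the strongest start summits, Vamp8, a vesicle fusion gene, had 245 fragments (215 to 278) and 95.3% coverage, and Pip4k2b, a lipid kinase gene, 238 (209 to 270) and 20.01%. The starts of Pip4k2b were not known, so its summit is known only to lie within 1 kb of either gene end. Iqch had 237 fragments (208 to 269) and Hyal2, a hyaluronidase gene, 223 (195 to 254). Among the 6 genes chosen by summit strength, coverage thus ranged from 20.01% to 96.5%, while Iqch and Hyal2 were chosen for their 0% coverage. Rnf44 alone held the searched letters in the printed stretch, and no match in the others says only that these letters are not there.

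The letters were hardly more frequent at RUNX1-bound starts than elsewhere. A TGTGGT or TGCGGT on either strand was present in 22.8% (95% interval 21.7 to 23.9) of 5745 promoter windows with a RUNX1 summit, in 20.8% (20.1 to 21.5) of 13310 windows without one, and in 21.4% of all 19055 windows of 300 bases. TGTGGT alone was less frequent with a summit, at 12.4% (11.6 to 13.3), than without, at 15.1% (14.5 to 15.7). The windows differed in base composition, with a median GC content of 62.3% in bound windows and 55.0% in the others, and its part in these shares was not tested. Among bound windows, either motif was present in 19.9% (17.7 to 22.4) of the weakest of 5 strength classes and in 25% (22.5 to 27.6) of the strongest. It was present in 21.9% (20.1 to 23.7) of bound windows of S2P-covered genes and in 23.4% (22 to 24.8) of bound windows of the other genes.

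The RUNX1 list held 28952 peaks with a median of 38 fragments at the summit, and the middle 90% of summits had 15 to 145. The S2P list held 163620 peaks over 115 Mb, with a median of 34 fragments and the middle 90% between 22 and 89. Shares below are given with 95% intervals (exact, Clopper-Pearson) that reflect counting error alone. Genes of 1 library are not replicates, and neighbouring genes can share summits, so no p-value is given and the differences describe these lists. A gene is called covered when S2P peaks lay over at least 50% of its length.

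Genes with RUNX1 were covered far more often than genes without. S2P covered 2999 of 10594 genes with RUNX1, or 28.3% (27.5 to 29.2), and 226 of 8710 genes without RUNX1, or 2.59% (2.27 to 2.95), beside 16.7% of all genes. The median gene with RUNX1 had 19.3% of its length under S2P peaks, with quartiles of 1.24% and 55.8%, whereas the median gene without RUNX1 had 0%. Any S2P at all was present on 79.5% of genes with RUNX1 and on 14.7% of genes without, beside 50.3% of all genes. Among genes that had some S2P, the covered share was 17.9 percentage points higher with RUNX1 than without, so the difference lay in the extent of S2P as well as in its presence. Genes with RUNX1 were longer, with a median of 23.7 kb against 18.4 kb.

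The length minimum made little difference at its edge. Of genes within 500 bp above it, 42.0% (34.0 to 50.3) of 150 with RUNX1 and 5.41% (2.99 to 8.90) of 259 without RUNX1 were covered. Of genes within 500 bp below it, the shares were 45.1% (36.5 to 54.0) of 133 with RUNX1 and 5.35% (3.09 to 8.54) of 299 without RUNX1.

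Most covered genes were RUNX1 genes. Of the 3225 covered genes, 93.0% (92.1 to 93.8) had a RUNX1 summit, beside 54.9% of all genes, and 85.3% (84.0 to 86.5) had one within 1 kb of a start, beside 41.1% of all genes. Of the 9601 genes with no S2P, 22.6% (21.8 to 23.5) had a RUNX1 summit and 8.83% (8.27 to 9.42) had one near a start. The height of the S2P signal separated covered genes with and without RUNX1 much less than its presence did. Among covered genes with an S2P summit inside them, the strongest S2P peak had a median deposited fold enrichment of 6.56 with RUNX1 (quartiles 4.96 and 8.81) and of 6.65 without RUNX1 (quartiles 4.74 and 10.1).

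By number, the largest step was between 0 summits and 1. The covered share was 2.59% (2.27 to 2.95) of 8710 genes with 0 summits, 24.3% (23.0 to 25.6) of 4226 with 1, 29.3% (27.6 to 31.0) of 2702 with 2, 33.2% (30.8 to 35.6) of 1497 with 3, 33.5% (30.2 to 36.9) of 780 with 4, and 30.5% (28.0 to 32.9) of 1389 with 5 or more. The share with any S2P kept climbing over the same classes, at 14.7%, 71.8%, 80.3%, 85.4%, 86.9% and 90.9%. Genes with many summits were long: the median was 18.4 kb with 1 summit, 65.1 kb with 5 or more and 114 kb with 8 or more, and of this last class 26.2% (22 to 30.7) of 409 genes were covered.

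Within classes of similar length, the order by number was steeper. Averaged over 10 equal length classes, the covered share was 2.40% with 0 summits, 22.6% with 1, 28.5% with 2 and 37.5% with 3 or more. Over all lengths the gap between 3 or more summits and 1 was 7.91 points, and averaged over the length classes it was 14.8 points. When only summits inside the gene were counted, the gap turned round to -2.79 points, with 25.2% of genes with 3 or more such summits and 28.0% of genes with 1 covered. With flanks of 1 kb it was 0.527 points. Over all lengths, the order by number thus depended on how much flank was counted. The gaps with the smaller flanks were not computed within length classes, and the part of length in them was not tested.

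**Figure D1:**
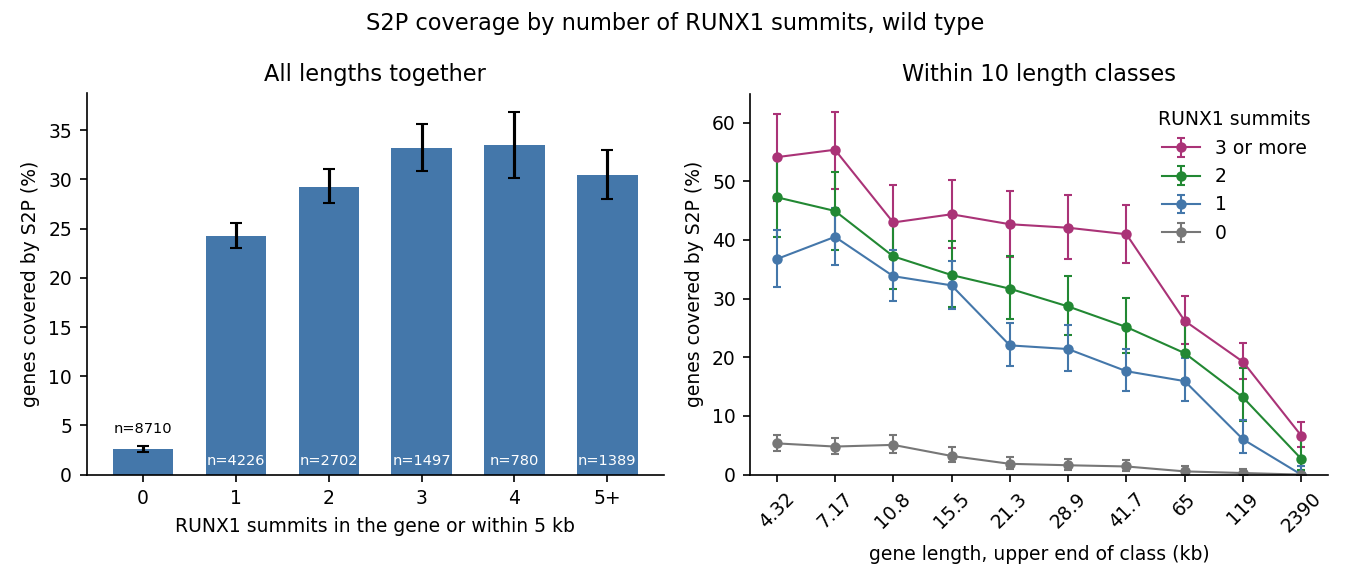
Share of genes covered by S2P (%, y axes) by number of RUNX1 summits in the gene or within 5 kb. Left, bars for all genes, highest at 33.5% with 4 summits and 2.59% with 0; right, points for the same share within 10 equal classes of gene length (upper end in kb), where the line of 3 or more summits lies above those of 2, 1 and 0. Whiskers are exact 95% intervals.

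Coverage was lowest in the longest genes whatever the RUNX1 number, but it did not fall at every step of length. In the shortest class, of 2.00 to 4.32 kb, 43.5% (40.1 to 47.1) of genes with RUNX1 and 5.32% (4.09 to 6.80) of genes without were covered. In the class of 4.32 to 7.17 kb, 45.6% (42.3 to 48.9) of genes with RUNX1 and 4.78% (3.57 to 6.25) of genes without were covered. In the class above 119 kb, 4.34% (3.13 to 5.84) of 945 genes with RUNX1 and 0 of 986 genes without were covered, which allows a share of up to 0.373%. Across the 10 classes the mean covered share was 29.0% with RUNX1 and 2.40% without.

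Position separated the genes more than number did. A summit near a start, within 1 kb of any listed start, was present in 7933 genes, of which 2750 or 34.7% (33.6 to 35.7) were covered. Genes with summits in the body and none near a start were covered in 145 of 1701 cases, or 8.52% (7.24 to 9.95). Their median coverage was 29.3% with a start summit and 0.311% with body summits alone. Genes with both kinds were covered in 32.1% (30.5 to 33.8) of 3052 cases and genes with a start but no body summit in 36.3% (34.9 to 37.6) of 4881. Genes with summits in the flanks only were covered in 10.8% (8.94 to 13.0) of 960 cases. Over all lengths, a body summit added to a start summit thus went with no higher covered share. The genes with both were longer, with a median of 39.8 kb against 15.6 kb, and these classes were not compared within length classes.

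The gap between start and body held within length classes and in genes that stand apart. Averaged over the 10 length classes, 34.4% of genes with a start summit and 12.1% of genes with body summits alone were covered. Among the 9214 genes with no other protein-coding gene within 5 kb, the shares were 30.5% (27.9 to 33.2) with start and body summits, 29.6% (27.2 to 32.1) with start summits and none in the body, 5.49% (4.0 to 7.33) with body summits alone, 4.11% (1.90 to 7.66) with flank summits only and 0.782% (0.569 to 1.05) with no RUNX1. The flank share was thus 10.8% over all genes and 4.11% where no neighbour lay close. Starts were known for 15328 genes, and for the rest both gene ends were used; with known starts alone the gap was 27.1 points, against 26.1 points over all genes.

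Genes with exactly 1 RUNX1 summit and known starts leave number aside. Their median length was 17.1 kb for a start summit, 42.0 kb for a body summit, 12.1 kb for an upstream and 13.8 kb for a downstream one. When the only summit lay near a start, 32.7% (30.7 to 34.6) of 2287 genes were covered. When it lay in the body, 6.10% (4.21 to 8.50) of 525 genes were covered, with 7.14%, 6.86%, 6.02%, 6.45% and 3.74% in 5 equal parts of the body in the direction of transcription. The intervals of these 5 parts, each with 83 to 140 genes, overlapped throughout. A single summit upstream of the start window went with 11% (7.26 to 15.8) of 227 genes covered, and one downstream of the gene with 7.80% (5.28 to 11) of 372.

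**Figure D2:**
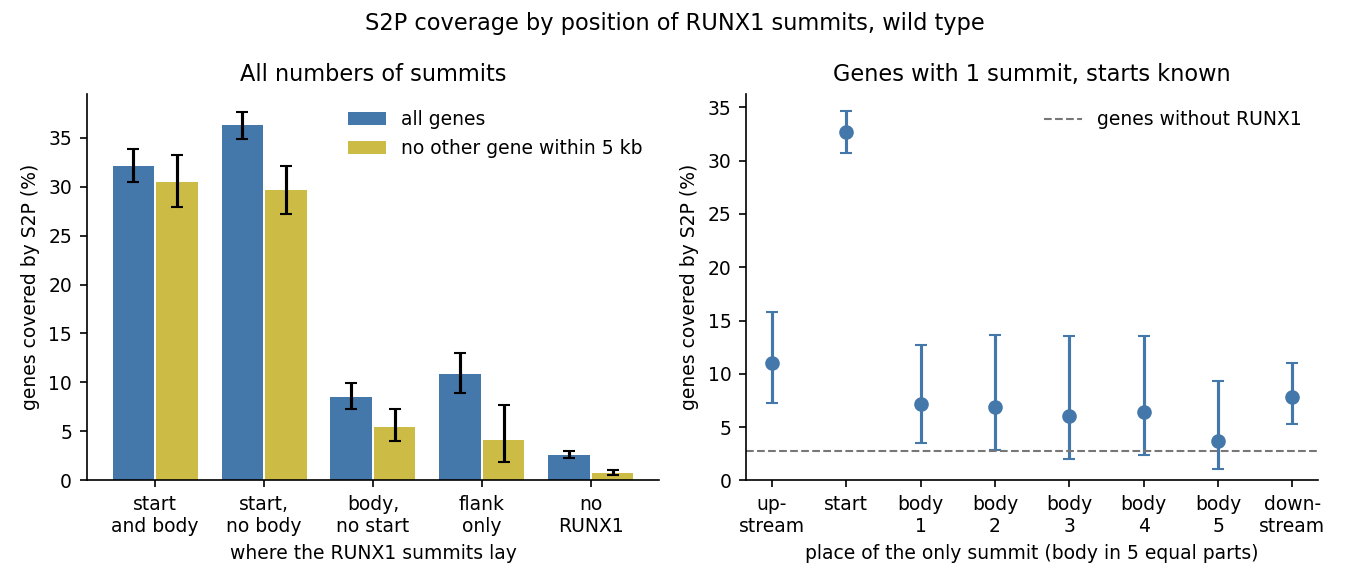
Share of genes covered by S2P (%, y axes) by where the RUNX1 summits lay. Left, bars by position class for all genes and for genes with no other gene within 5 kb, with 32.1% and 36.3% for the start classes and 8.52% for body summits alone; right, points for genes with exactly 1 summit, 32.7% at the start and 3.74% to 7.14% across the body, with the dashed line at 2.73% for genes without RUNX1. Whiskers are exact 95% intervals.

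Stronger start summits went with somewhat more coverage. Genes with a start summit were put into 10 equal classes by their strongest one. The covered share was 28.1% (25 to 31.4) in the weakest class and 40.2% (36.7 to 43.7) in the strongest, and the median coverage was 22.7% and 37.8%. Median gene length differed little among the 10 classes, between 21.4 and 24.3 kb. Even the weakest start summits thus went with a covered share more than 25 points above that of genes without RUNX1.

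S2P was more frequent towards the gene end than at the start in every class, and its level set the classes apart. In 5375 genes of at least 10 kb with known starts and no neighbour within 5 kb, S2P lay at the start itself in 13.5% of genes with start and body summits, 11.1% with start summits and none in the body, 2.91% with body summits alone, 2.00% with flank summits only and 0.507% without RUNX1. At 5 kb into the gene the shares were 28.7%, 30.2%, 5.65%, 5.0% and 1.42% in the same order. At the annotated end they were 50.8%, 47.3%, 15.1%, 15.0% and 1.89%. They were highest beyond the end: at 1 kb past it S2P was present in 72.1%, 67.6%, 22.6%, 16.0% and 3.11% of genes, and at 5 kb past it in 29.6%, 19.9%, 8.93%, 6.0% and 1.59%. A RUNX1 summit near the start thus marked the genes whose far end most often carried S2P.

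**Figure D3:**
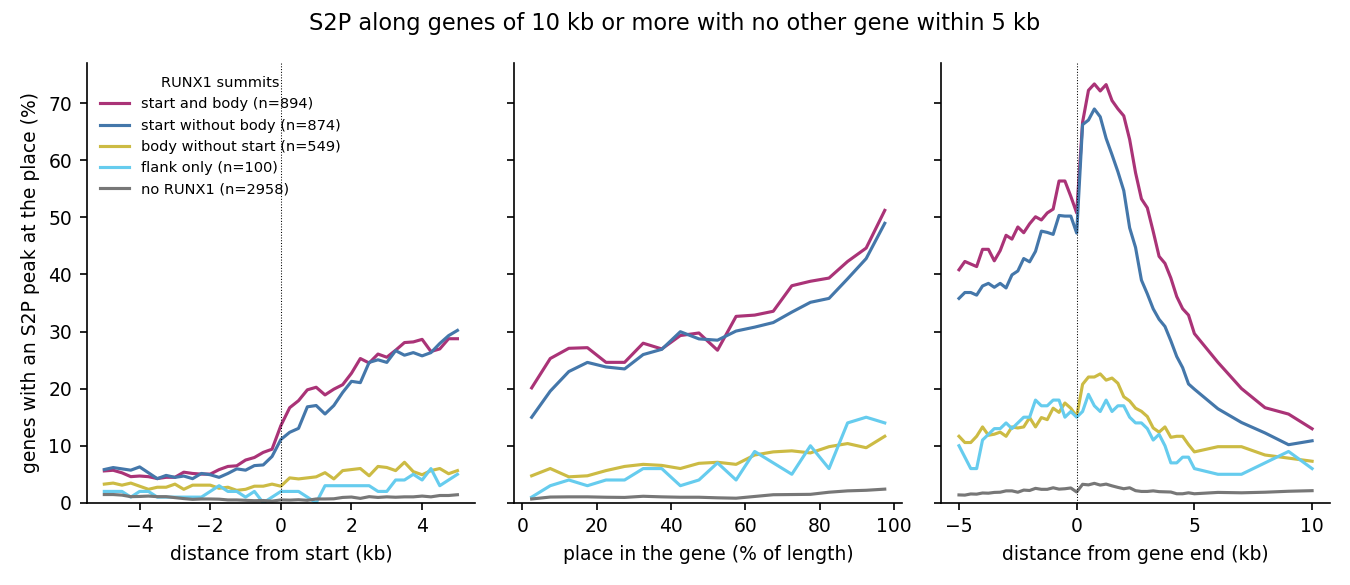
Share of genes (%, y axis) with an S2P peak at each place, for 5 classes of RUNX1 position (coloured lines): distance from the start in kb (left), place in the gene in % of its length (middle) and distance from the gene end in kb (right). At 1 kb past the end the 2 classes with a start summit reached 72.1% and 67.6%, body summits alone 22.6%, flank summits 16.0% and genes without RUNX1 3.11%.

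Seen from the RUNX1 sites, a minority lay inside an S2P peak. S2P peaks covered 115 Mb in all, and the share of random places inside them was not computed, so more or less overlap than at random cannot be read from these shares. The summit base was inside an S2P peak for 6242 of 28952 RUNX1 summits, or 21.6% (21.1 to 22). The share was 25.2% (24.3 to 26.1) of 8753 start summits, 27.1% (26.3 to 27.9) of 11473 body summits, 27.4% (25.6 to 29.4) of 2190 summits within 5 kb of a gene and 5.08% (4.56 to 5.64) of 6536 farther away. By RUNX1 strength it was 25% (23.4 to 26.6) in the weakest of 10 classes and 19.9% (18.4 to 21.4) in the strongest. Counted by any overlap of the peaks instead, the share was 28.1% in the weakest class and 31.3% in the strongest, so the direction turned with the measure. In all, 77.4% of RUNX1 summits could be assigned to a gene of at least 2 kb.

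Around summits in gene bodies, S2P was locally enriched at the RUNX1 site. An S2P peak lay at 27.7% of 9056 body summits, at 20.9% of places 500 bp before the summit in the direction of the gene, and at 22.1% of places 500 bp after it. The share also sloped upward along the gene, at 19.0% for 5 kb before and 26.1% for 5 kb after. GATA2 summits in gene bodies gave the same form at a lower level, with 22.7% of 28287 at the summit, 18.9% and 19.8% at 500 bp before and after, and 17.1% and 23.0% at 5 kb before and after. A local rise at the summit was therefore not particular to RUNX1. Leaving out all bases within 500 bp of any RUNX1 peak changed the covered-share gap between genes with and without RUNX1 only to 26.6 points, against 25.7 points with them.

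**Figure D4:**
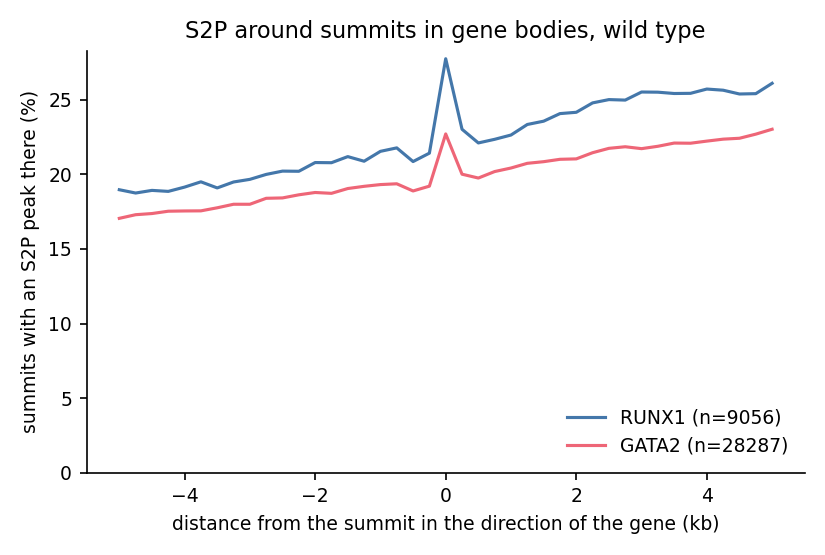
Share of body summits (%, y axis) with an S2P peak at each distance in kb from the summit, in the direction of the gene (x axis), for 9056 RUNX1 and 28287 GATA2 summits. Both lines slope upward and have a local rise at the summit, to 27.7% for RUNX1 and 22.7% for GATA2; the GATA2 line is as high again at 5 kb after, at 23.0%.

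GATA2, the other blood transcription factor profiled in the same cells, served to show how far the relation was that of any occupied gene. RUNX1 was near a start far more often: 30.2% of RUNX1 summits and 5.27% of GATA2 summits lay there. Of covered genes, 82.8% (81.4 to 84.0) had GATA2, beside 11918 of all 19304 genes. By GATA2 position, 29.0% of genes with start and body summits were covered. The shares were 31.4% with start summits and none in the body, and 18.4% with body summits alone. Start summits thus went with more coverage for GATA2 too. Of genes with RUNX1, 28.0% (27.1 to 29.0) of 9081 that also had GATA2 and 30.0% (27.7 to 32.4) of 1513 that lacked GATA2 were covered. Of genes without RUNX1, 4.37% (3.65 to 5.19) of 2837 with GATA2 and 1.74% (1.42 to 2.1) of 5873 with neither were covered. The covered share thus followed RUNX1 whether or not GATA2 was present. Genes with GATA2 were longer, with medians of 27.1 against 10.2 kb with RUNX1 and of 29.6 against 14.5 kb without RUNX1. A part of GATA2 at genes of like length was not tested.

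Crossing the positions of both factors gave the same picture. With a RUNX1 start summit, 34.8% of genes with GATA2 near a start, 32.0% with GATA2 in the body and 35.6% without GATA2 were covered. The median lengths of these genes were 22.6, 34.5 and 10.1 kb, and they were not compared within length classes. With RUNX1 in the body and none near a start, the shares were 14.4% (10.5 to 19.1) of 277 genes with GATA2 near a start, 7.19% (5.82 to 8.77) of 1251 with GATA2 in the body and 8.18% (3.81 to 15.0) of 110 without GATA2. Without RUNX1, 12.4% (9.15 to 16.3) of 355 genes with GATA2 near a start and 2.60% (1.92 to 3.44) of 1808 with GATA2 in the body were covered. In both of these settings the share was higher with GATA2 near a start than with GATA2 in the body, but the genes also differed in length, with medians of 41.5 and 61.2 kb with RUNX1 in the body and of 15.8 and 50.2 kb without RUNX1. Both lists may share an input, so their backgrounds may not be independent.

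Base composition moved with RUNX1 and with coverage, and its part in the relation was not tested beyond a split by it. A start was called CpG-dense at a GC content of at least 50% and an observed-to-expected CpG ratio of at least 0.6. Of 8262 genes with a CpG-dense start, 26.0% (25.1 to 27.0) were covered, against 7.19% (6.60 to 7.82) of 7066 genes without such a start. Within CpG-dense genes, 33.1% (31.9 to 34.3) with RUNX1 and 4.26% (3.42 to 5.23) without RUNX1 were covered. Within the other genes, the shares were 17.3% (15.8 to 18.9) with RUNX1 and 2.07% (1.68 to 2.52) without. The start summit kept its gap over body summits alone in both, with 36.8% against 9.52% in CpG-dense genes and 26.7% against 6.51% in the others. The 296 olfactory and vomeronasal receptor genes, which are silent outside sensory tissue, held RUNX1 in 17 cases, and 0 of the 17 and 0 of the 279 without RUNX1 were covered.

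Erythroid genes checked the labelled cell type. Of 48 erythroid genes of at least 2 kb, 46 had RUNX1 and 40 had it near a start, and 24 were covered, 23 of them with RUNX1. Over all genes 54.9% had RUNX1, 41.1% had it near a start and 16.7% were covered. Their median coverage was 49.9%, beside 0.0532% over all genes. Zfpm1, the gene of the GATA1 cofactor FOG1 (chromosome 8, 122281856 to 122337862, GRCm38.p6), and Bcl11a, the fetal globin repressor gene, each had 16 summits, and 93.1% and 79.3% of their lengths were under S2P. Tfrc, the transferrin receptor gene that feeds iron into heme synthesis, had 5 summits and 99.2% coverage, Gfi1b 5 and 99.1%, and the stem and erythroid regulator Tal1 7 and 98.7%. Epb41, a membrane skeleton gene, had 11 summits over 152 kb and 82.7% coverage, part of which may belong to a gene it overlaps.

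Coverage among erythroid genes did not follow RUNX1 alone. Car2, a carbonic anhydrase gene, had no RUNX1 summit and 93.5% coverage. Slc4a1 and Alas2 were picked out after their values were seen. Slc4a1, which encodes band 3, the anion exchanger of the mature red cell, had 3 summits, 1 of them near a start, and 0% coverage. Alas2, the erythroid entry enzyme of heme synthesis, had 3 summits and 18.5% coverage. Gata1 itself, whose endogenous copy is disrupted in this line, had 4 summits, the strongest with 140 fragments (118 to 165), and 65.9% coverage. The 4 alpha and beta globin genes of the list are shorter than 2 kb and were not described.

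Covered stem and progenitor genes all had RUNX1. Of 30, 17 (56.7%) had RUNX1, near the 54.9% of all genes, and 11 (36.7%) were covered, beside 16.7% of all genes. All 11 covered genes were among the 17, whose median coverage was 85.4%, against 0% for the 13 without RUNX1; among all covered genes, 93.0% had RUNX1. Runx1 (chromosome 16, 92601466 to 92826074) led the list with 19 summits, 2 near a start and 17 in the body, the strongest with 252 fragments (222 to 285), and 80.6% of its 225 kb was under S2P. Gata2 had 8 summits and 99.3% coverage, Lyl1, a partner factor of the same stem-cell network, 6 and 100%, and Zfp36l2, an mRNA decay factor gene, 7 and 100%. Lyl1 overlaps another protein-coding gene, to which part of its coverage may belong. Erg, the ETS factor gene (chromosome 16, 95359169 to 95586600), stood apart with 18 summits, 1 near a start, and 1.63% coverage. Angpt1 had 10 summits, none near a gene end, the strongest with 174 fragments (149 to 202), and 0% coverage. The starts of Angpt1 were not known. Runx1 and Erg are of nearly the same length and summit number but differed in S2P. The strongest Erg summit, with 194 fragments (168 to 223), was shallower than that of Runx1, and the intervals overlapped only at their edges.

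Markers of megakaryocytes and mast cells had RUNX1 and were covered at shares near those of all genes, 54.9% and 16.7%. Any S2P was present on 4 of 16 megakaryocyte genes and 7 of 15 mast cell genes, beside 50.3% of all genes. In the megakaryocyte list, 9 of 16 genes (56.2%) had RUNX1 and 3 (18.8%) were covered, all with a start summit: the platelet glycoprotein genes Gp5 at 100% and Gp1ba at 97.9%, and Plek at 58.9%. Itgb3, the platelet integrin subunit gene, had 6 body summits, the strongest with 188 fragments (162 to 217), and 0% coverage. The starts of Itgb3 were not known, so body here means away from both gene ends. In the mast cell list, 7 of 15 (46.7%) had RUNX1 and 3 (20%) were covered: Slc18a2, a monoamine transporter gene without RUNX1, at 70.8%, Il4 at 57.7% with 4 summits and Cpa3 at 54.5% with 5. Il1rl1, the interleukin-33 receptor gene, had 5 summits and 33.2% coverage, and Ms4a2, an IgE receptor subunit gene, had 4 flank summits and 0%.

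The other blood lists held no covered gene, beside 16.7% of all genes. Of 15 myeloid genes, 3 (20%) had RUNX1, beside 54.9% of all genes, and the highest coverage was 11.6% at Csf1r, the macrophage growth factor receptor gene, which had no RUNX1. Spi1, the gene of PU.1, had 4 summits and 8.75%. Of 20 lymphoid genes, 8 (40%) had RUNX1, and the highest coverage was 20.3% at Tcf7, a T-cell factor gene, which had no RUNX1 and overlaps another gene. Lck, a T-cell kinase gene, had 4 summits, 2 near a start, and 0% coverage, but its strongest summit had only 21 fragments (13.0 to 32.1). Ptcra, the pre-T-cell receptor gene, had 2 flank summits, the strongest with 121 (100 to 145), and 0%. Of 18 genes of non-blood tissues, 4 (22.2%) had RUNX1 and only Pax6 was covered, at 55.4% with 5 summits, and Pax6 overlaps another protein-coding gene.

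Of 20 genes of RUNX1 and its partners, 15 (75%) had RUNX1 and 6 (30%) were covered, beside 54.9% and 16.7% of all genes. All 6 had a start summit, as did 85.3% of all covered genes. Cbfa2t3, the corepressor gene ETO2, had 9 summits and 85.4% coverage. Tle3, of the Groucho corepressors, had 9 and 74.0%, and Prmt1, an arginine methyltransferase gene, had 1 and 79.1%. Cbfb, the DNA-binding partner (chromosome 8, 105170674 to 105217989), had 1 weak body summit with 25 fragments (16.2 to 36.9) and 35.6% coverage. Chd7 had no RUNX1 summit and 0% coverage over 178 kb.

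All 37 genes of the elongation machinery had RUNX1, beside 54.9% of all genes, and 34 had it near a start, beside 41.1%. In Leo1 and Ell3 the summits lay in the flanks only, and that of Leo1 had 19 fragments, with 4.19% coverage of the gene. Of the 37, 25 were covered, beside 16.7% of all genes, with a median of 61.4%. Cdk9, the kinase of P-TEFb, had 4 summits, 3 near a start, and 95% coverage. Hexim1, its inhibitor, had 2 and 95.5%, and Ssrp1, a FACT histone chaperone subunit gene, had 2 and 89.7%. The super elongation complex genes were uneven: Ell2 had 14 summits and 71.6% coverage, Aff1 9 and 25.4%, and Mllt3 15 over 263 kb and 9.52%. Mllt3 had 4 start summits, so its low share came with a bound start.

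Housekeeping and cell-cycle genes had the highest median coverage of the lists. All 22 housekeeping genes had RUNX1, with a median of 2 summits, 20 had it near a start, and 21 were covered, with a median of 94.4%. The shares over all genes were 54.9%, 41.1% and 16.7%. Rplp0, a ribosomal protein gene, had 1 summit and 100%, and Ppia 2 and 100%. Ywhaz had 4 body summits and none near a gene end, and 76.9% coverage. Its starts were not known, so a body summit may lie near a start. All 29 cell-cycle genes had a start summit, beside 41.1% of all genes, and 24 were covered, beside 16.7%, with a median of 85.5%. Cdk1 had 2 summits and 98.4%, Pcna 2 and 97.1%, Ccnd2 10 and 97.8%, and Cdk6 15 and 62.6%. Ccnd3, a cyclin D gene, had 18 summits and 6.38%, over an annotated interval of 94.6 kb that overlaps another gene.

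**Figure D5:**
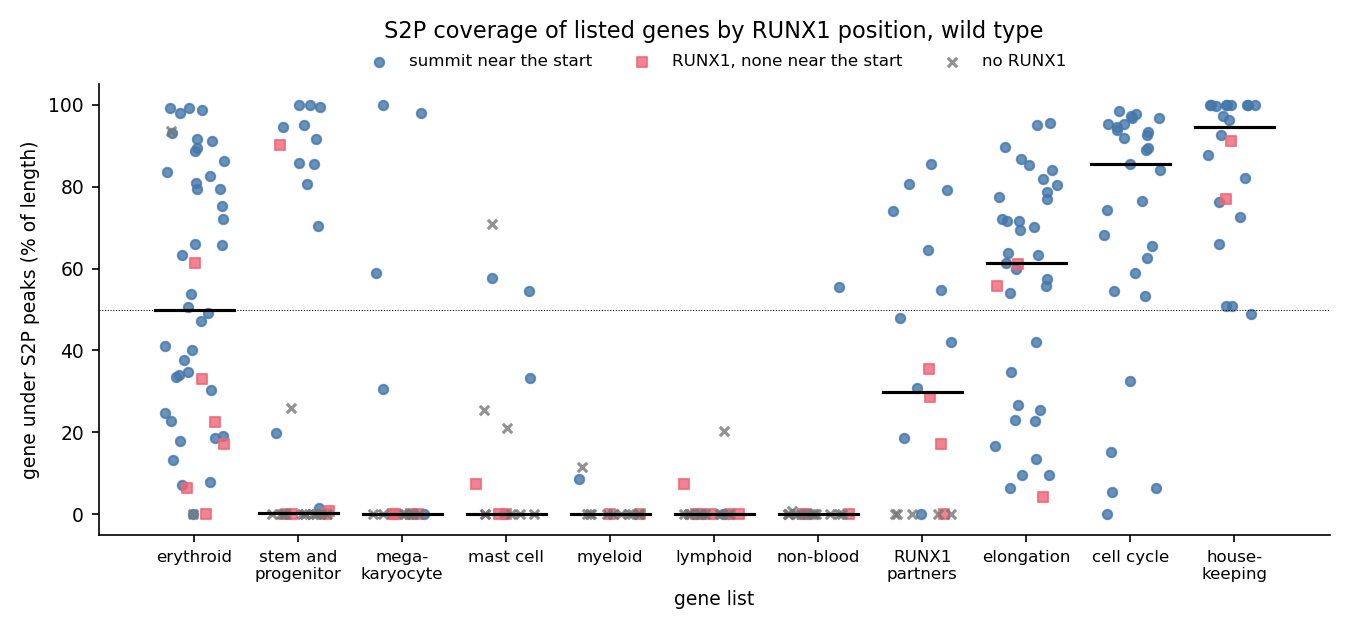
S2P coverage of each listed gene (% of length, y axis) by gene list (x axis). Circles are genes with a RUNX1 summit near a start, squares genes with RUNX1 elsewhere only, crosses genes without RUNX1, black lines list medians, and the dotted line the 50% limit; medians were 94.4% for housekeeping, 85.5% for cell-cycle, 61.4% for elongation and 49.9% for erythroid genes, and 0% for the megakaryocyte, mast cell, myeloid, lymphoid and non-blood lists.

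The genes with the most RUNX1 summits differed widely in coverage. Sgms1, a sphingomyelin synthase gene (chromosome 19, 32122727 to 32389885), had 41 summits, 37 in the body, and 16.0% coverage. Mbnl1, a splicing regulator gene, had 25 over 157 kb and 93.1%, and Msi2, an RNA-binding protein gene of stem cells, 27 over 379 kb and 67.7%. Rere had 26 and 15.8%, Rad51b, a recombination gene, 26 and 0.478%, and Pcdh7, a protocadherin gene, 23 and 2.74%. All 6 had a start summit, and their coverage lay between 0.478% and 93.1%. They are all in the length class above 119 kb, where 4.34% of genes with RUNX1 were covered. Within that class the share was 0% with 1 summit, 2.68% with 2 and 6.63% with 3 or more. These examples of long genes thus do not set number apart from length.

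Deep RUNX1 summits also lay at or near genes without S2P. Of genes with known starts and a start summit, 652 had 0% coverage, 3592 had some coverage under 50% and 2286 were covered. Such genes without S2P were thus less common than among all genes: with a start summit 89.3% had some S2P, beside 50.3% of all genes. Besides Iqch and Hyal2, the strongest summits at genes with 0% coverage belonged to Ppp1r13l with 245 fragments (215 to 278), Actl6b, a neuronal chromatin remodeller subunit gene, with 235 (206 to 267), Zfp1 with 229 (200 to 261) and Itgb3. The deepest summits of Actl6b and Ppp1r13l lay in the flanks of these genes, and whether they belong to a neighbouring gene was not tested. The summits in the promoter windows of Actl6b and Ppp1r13l were weaker, with 18 fragments (10.7 to 28.4) and 99 (80.5 to 121). At Iqch, the same summit was also within 1 kb of a start of Aagab on the opposite strand, and Aagab had 54.1% coverage.

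Starts shared with another gene, as at Iqch, were found in a minority of these cases. Only protein-coding genes of at least 2 kb with known starts were searched, so shared starts of other genes were not counted. Of the 652 genes with a start summit and 0% coverage, 23.5% (20.3 to 26.9) had another gene's start within 1 kb of that summit, against 19.2% (17.6 to 20.9) of 2286 covered genes with a start summit. The other gene had some S2P in 18.3% (15.4 to 21.4) of the 652 and in 17.8% (16.2 to 19.4) of the 2286, and was itself covered in 5.06% (3.51 to 7.03) and 8.36% (7.25 to 9.57).

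Genes with S2P over most of their length and no RUNX1 formed the opposite exception. Of 1334 genes with at least 80% coverage, 95 or 7.12% (5.80 to 8.64) had no RUNX1 summit in the gene or within 5 kb. The longest were Csnk2a2, a casein kinase subunit gene (chromosome 8, 95446096 to 95488868), with 88.7%, and Hells, a chromatin remodeller gene of the replicating cell, with 94.5% over 40.2 kb. Timm23, a mitochondrial import channel gene, had 96.7%, Adsl, a purine synthesis gene, 89.6%, Csf2rb2, a cytokine receptor subunit gene, 89.0%, and the translation initiation gene Eif2s3x 81.9%. Over all covered genes, the median length was 15.1 kb with RUNX1 and 7.42 kb without.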

How the data were processed

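The files were WT peak lists on GRCm38 (mm10). Bowtie2 2.2.1 and MACS2 2.1.0 are named, without roles or settings, per the submitters' processing notes. Each deposited fold enrichment is a ratio, of fragments at the summit to local background. The peak caller's −log10 p and −log10 q were deposited for each summit, and the lowest −log10 q was 1.30 to 1.34. How the authors combined the S2P replicates, and with which inputs peaks were called, is not given in the sources used here. Fragment numbers were recovered from fold and −log10 p under a Poisson model, whole in 100% of RUNX1 and S2P peaks at a tolerance of 0.005. The recovery and the gene counts were tested on simulated data.

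Gene intervals came from RefSeq (GRCm38.p6) and span all transcripts of a gene. The promoter table gave strand and starts for 15328 genes, 2744 with several, and both ends stood in for the others. Of the 19304 genes, 3620 overlap another. Coverage is the percentage of the interval under S2P peaks. The Chd7 knockout lists were not used here. Members and gene lists were chosen with earlier results of these data known. Named genes are, per list, the 3 with most summits, the 3 with highest coverage and any with 0 summits and at least 50% coverage; over all genes, predicted and overlapping ones apart, 6 each with most summits, the strongest start summit, the strongest summit at 0% coverage, and the longest at 80% coverage or more without RUNX1; and Runx1, Cbfb, Gata1, Gata2 and Chd7. Python 3.11.15, numpy 2.4.6, pandas 2.3.3, scipy 1.17.1 and matplotlib 3.10.9 were used. Reads carry no molecular identifiers, so PCR copies may be counted among the fragments.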

Additional observations from a re-analysis of the deposited data

How the results depend on the processing

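No paired analysis was possible because each target had 1 list, in which the S2P replicates cannot be separated. Of 62 alternative values, 26 stayed within the main interval, 35 moved beyond it with the same sign and 1 changed sign. The covered share of genes with RUNX1 minus genes without, 25.7 points, was 39.5 and 12.9 when covered meant 25% and 75% of the gene, 17.0 counting summits inside the gene only, 22.5 with S2P peaks of −log10 q of at least 5, 22.6 for genes of at least 10 kb and 22.3 for genes with no neighbour within 5 kb. The difference in median coverage, 19.3 points, was 21.6 with flanks of 1 kb, 14.4 with the stricter S2P peaks, 16.0 from 10 kb and 10.95 without neighbours. The gap between 3 or more summits and 1, 7.91 points, was 10.3 and 4.65 at 25% and 75%, 0.527 with flanks of 1 kb and -2.79 inside the gene only; the cause was not tested. The gap between start and body summits, 26.1 points, was 37.1 and 14.9 at 25% and 75%, 14.8 inside the gene only, 23.5 with the stricter S2P peaks and 22.7 from 10 kb. Averaged over length classes, the first gap, 26.6 points, was 40.01 and 13.8 at 25% and 75%, 21.6 inside the gene only, 28.0 with flanks of 1 kb, 23.4 with the stricter S2P peaks, 22.3 from 10 kb and 23.9 without neighbours. The share of RUNX1 summits inside S2P peaks, 21.6%, was 19.1% with the stricter S2P peaks and 28.4% when any overlap of the peaks counted.

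Other alternatives were chosen after seeing the data. The first gap was 28.8 points within CpG-dense starts, 15.3 outside them and 17.9 among genes with some S2P. The median difference was 26.6 within CpG-dense starts and 3.92 outside them. Over length classes, the gap by number was 14.8 points and that by position 22.3, and the gap by position was 20.2 outside CpG-dense starts. Weak binding below the q limit of the lists, and S2P too sparse to be called as a peak, are counted here as absent.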
